A study of Mus musculus with 20 samples.

Results

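The IL-6 family of cytokines signals through gp130, the shared receptor chain that Il6st encodes. Each ligand first binds a receptor of its own, the receptor pair activates JAK kinases, and these phosphorylate STAT3, which enters the nucleus and switches on genes for acute-phase, antimicrobial and survival proteins. One of the genes it switches on is Socs3, whose product blocks the receptor again. In the inflamed gut, IL-6 is known as a product of myeloid and stromal cells, oncostatin M as a product of myeloid cells that acts on stromal cells, and IL-11 as a product of fibroblasts. The axis was followed here as 10 genes: the ligands Il6, Il11, Osm and Lif, the receptors Osmr, Il6ra, Il6st and Il11ra1, the transcription factor Stat3 and the feedback inhibitor Socs3. They are 10 of 32991 genes with a value, and all 10 were found.

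RNA of the colon was sequenced from 20 male C57BL/6 mice, 5 per group and 1 library per mouse. Control mice received distilled water by gavage and neither AOM nor DSS. PZH mice received Pien Tze Huang, a traditional Chinese medicine formula, at 250 mg/kg per day by gavage for 91 days. AOM/DSS mice received the water, an injection of the carcinogen azoxymethane (AOM) at 12.5 mg/kg, and, beginning 7 days later, repeated cycles of 5 days of 2% dextran sodium sulfate (DSS) in drinking water, a colitis-inducing polymer. PZH + AOM/DSS mice received AOM and DSS in the same way, and PZH at the same dose over the 91 days in place of the water. Mouse numbers are those of the labels, and no number links a mouse of one group to a mouse of another. Values are FPKM, fragments scaled to transcript length and library size, summed over the Ensembl transcripts of a gene. Depth, read from the smallest steps in the values, was 15.3 to 19.4 M fragments per mouse, and it limits Il6, Il11 and Osm most, whose levels without AOM/DSS rest on few fragments.

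The tissue was checked with marker genes, given per mouse as the mean of log2(FPKM + 1) over a list, because a label mentions the aorta in the dissection. The 10 colon epithelium markers stood at 6.08 to 8.26 in every mouse and the 5 endothelium markers at 1.92 to 2.92, so the libraries carried colon epithelium throughout. The 6 smooth muscle markers stood at 6.96 to 9.56, above the epithelium mean in every Control mouse. That list does not show which tissue the muscle came from. Control mice 17 and 50 stood apart: their 7 squamous epithelium markers summed to 304.5 and 259.7 FPKM. The other 18 mice had 0.353 to 60.0 FPKM, the highest of them PZH + AOM/DSS mouse 35. Control mice 17 and 50 also had the highest neutrophil marker means of the Control group, 2.53 and 2.23, against 0.945 to 1.2 in the other 3. Values of the 10 genes without these 2 mice are given with the comparisons that include Control.

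RefSeq promoter windows of GRCm38.p6, from 250 bases before to 50 after a start, were found for 9 of the 10 genes, all but Osm. They were searched on both strands for TTCNNNGAA, the letters that STAT proteins bind, and for TGACTCA or TGAGTCA, the letters of an AP-1 site. The STAT letters were in the window of Socs3 and in no other window of the 9 genes, and 8.30% of all 32851 windows hold them. The AP-1 letters were in windows of Il6, Il11 and Lif, and 5.20% of all windows hold them. The 80 bases around each match are printed because these are the ligand genes and the feedback gene that the results turn on, with the matching letters in capitals, 5′ to 3′ on the strand of the gene.
Socs3, chr11:117969477-117969556, minus strand: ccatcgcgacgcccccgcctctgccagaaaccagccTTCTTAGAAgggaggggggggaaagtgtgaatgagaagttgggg
Il11, chr7:4778196-4778275, minus strand: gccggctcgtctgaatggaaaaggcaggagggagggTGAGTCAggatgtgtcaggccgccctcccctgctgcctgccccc
Il6, chr5:30012864-30012943, plus strand: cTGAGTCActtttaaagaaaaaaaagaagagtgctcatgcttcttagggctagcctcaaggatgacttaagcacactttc
Lif, chr11:4257318-4257397, plus strand: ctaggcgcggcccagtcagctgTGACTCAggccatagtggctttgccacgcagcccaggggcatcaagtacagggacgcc
None of these stretches overlapped an exon of its gene in GENCODE M21. The Socs3 stretch lay in an intron of the minor transcript Socs3-202, and its RefSeq start lay 180 bases before the 5′ end of Socs3-201, which gave 97.5% of Socs3 FPKM. The Il11 window belonged to the 5′ end of Il11-201, which gave 99.6% of Il11 FPKM, whereas the Lif window lay 9527 bases before the 5′ end of the leading transcript Lif-201. A match is a description of letters and not of binding.

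In AOM/DSS mice, 3 of the 4 ligands, the oncostatin M receptor, Stat3 and Socs3 rose over Control. Socs3 was 5.98-fold, Osmr 2.92-fold and Stat3 1.43-fold higher by mean FPKM, while Il6ra, the receptor that gives cells their sensitivity to IL-6, did not pass the test. Of the 9 genes tested, 6 were called higher and 0 lower by limma with trend at a Benjamini-Hochberg adjusted p under 0.05 over all 15812 genes, and 16.4% of all genes were called higher. Testing required 0.5 FPKM or more in 5 or more of the 10 mice compared, which Il6 missed and Osm met through the 5 AOM/DSS mice alone. Il11 met this requirement through the same 5 mice and Control mouse 50 (0.587 FPKM), and it stays in the counts that follow. Without Osm, 5 of 8 genes were called higher and their median log2 fold change was 0.83, against 0.09 over all genes. In the same 5 genes the lowest AOM/DSS value exceeded the highest Control value, as was so for 13% of genes tested (2058 of 15812). In bulk tissue, more cells of a type and more RNA per cell cannot be told apart.

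**Figure D1:**
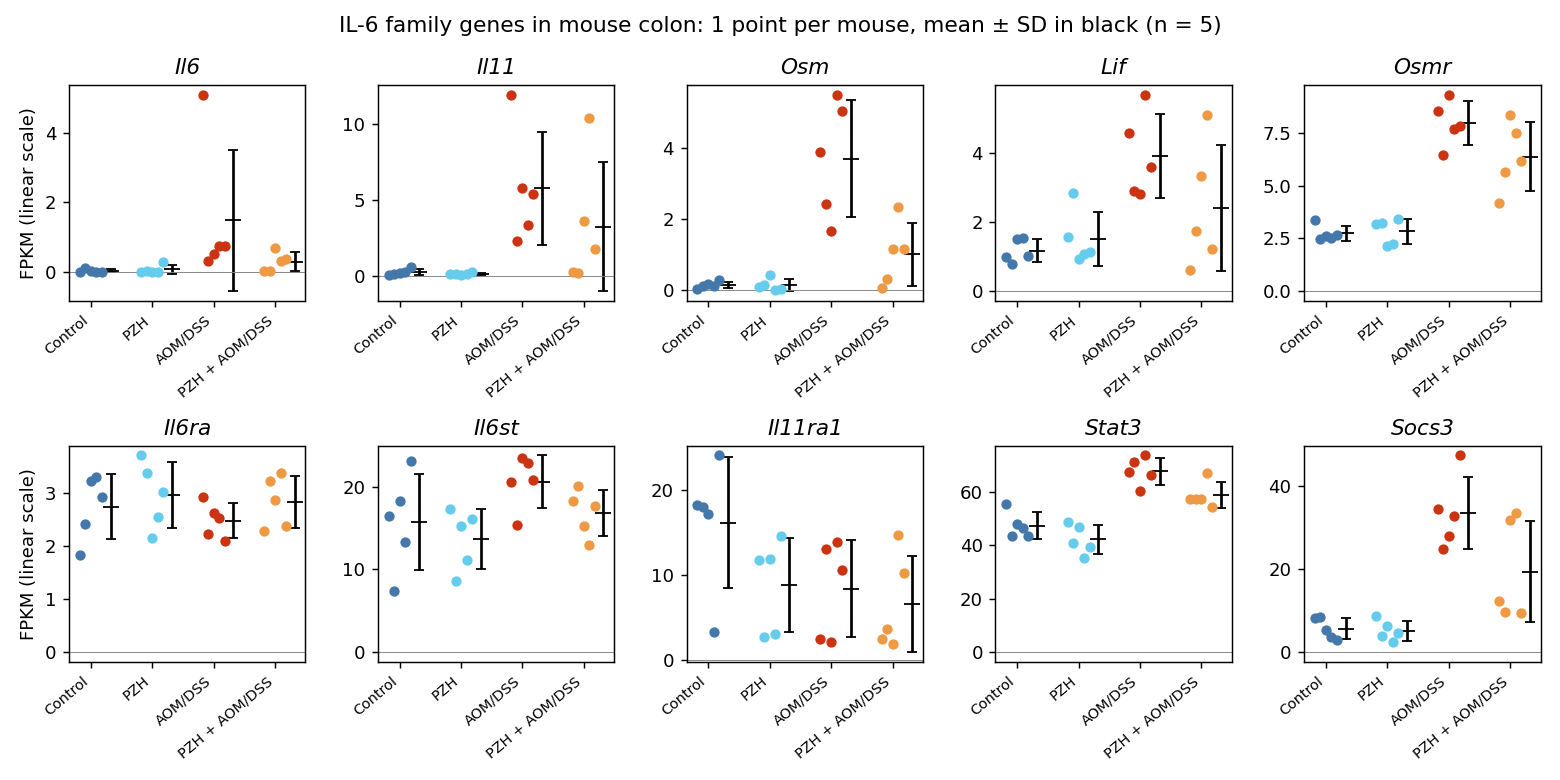
FPKM of the 10 genes (linear y axis, 1 panel per gene) in each mouse of the 4 groups on the x axis, with 1 point per mouse and the mean ± SD in black (n = 5). The AOM/DSS points of Il11, Osm, Osmr, Stat3 and Socs3 lie above all Control and PZH points, Il6ra overlaps in every group, and the PZH + AOM/DSS points of Il11 and Lif are spread from the Control range to the AOM/DSS range.

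Osm encodes oncostatin M, which acts through Osmr paired with gp130. Its FPKM was 0.0269, 0.0945, 0.152, 0.11 and 0.276 in Control mice 17, 37, 41, 48 and 50, values that rest on 1 to 8.25 estimated fragments. It was 3.88, 2.42, 1.65, 5.49 and 5.03 in AOM/DSS mice 23, 30, 33, 44 and 52, on 64.8 to 198 fragments. The groups did not overlap, and without a filter on low values the log2 fold change of FPKM + 1 was 1.98 ± 0.24 (SE, limma adjusted p = 0.000892). In PZH + AOM/DSS mice 2, 13, 15, 35 and 36 it was 0.0568, 0.302, 1.15, 2.32 and 1.14. Mouse 2 lay within the Control range, and mouse 35 was the only one of the 5 inside the AOM/DSS range. PZH mice 8, 14, 27, 46 and 53 gave 0.0803, 0.122, 0.406, 0 and 0.0287.

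Il11 encodes IL-11, which signals through Il11ra1 and gp130. Its FPKM was 0.0314, 0.112, 0.211, 0.280 and 0.587 in Control mice 17, 37, 41, 48 and 50 and 11.9, 2.29, 5.81, 3.38 and 5.37 in AOM/DSS mice 23, 30, 33, 44 and 52. All AOM/DSS mice were above all Control mice, with a log2 fold change of 2.3 ± 0.31 (SE, limma adjusted p = 0.00059). PZH mice held 0.0471 to 0.259. In PZH + AOM/DSS mice 2, 13, 15, 35 and 36 the values were 0.281, 0.162, 3.60, 10.4 and 1.76. Mice 2 and 13 were thus at Control level while mouse 35 came close to the highest AOM/DSS mouse.

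Lif encodes leukemia inhibitory factor, whose gene lies beside Osm on chromosome 11. It was the most abundant of the 4 ligands in every Control and PZH mouse. Its FPKM was 0.976, 0.789, 1.51, 1.54 and 1.02 in Control mice 17, 37, 41, 48 and 50 and 4.56, 2.90, 2.81, 5.68 and 3.58 in AOM/DSS mice 23, 30, 33, 44 and 52, without overlap. The log2 fold change was 1.16 ± 0.18 (SE, limma adjusted p = 0.00144). PZH mice gave 1.56, 2.85, 0.923, 1.08 and 1.13, so that mouse 14 reached the lower end of the AOM/DSS range. In PZH + AOM/DSS mice 2, 13, 15, 35 and 36 the values were 0.621, 1.72, 3.31, 5.10 and 1.22, and that of mouse 2 rests on 3.75 estimated fragments, all on the short noncoding transcript Lif-203. Over all mice, 49.3% of Lif FPKM came from Lif-201.

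Il6 was the scarcest ligand. It was at 0 in 3 of 5 Control mice and 3 of 5 PZH mice, and its highest values there were 0.117 in Control mouse 37 and 0.271 in PZH mouse 53, on 5.00 and 4.00 estimated fragments. AOM/DSS mice 23, 30, 33, 44 and 52 gave 5.11, 0.297, 0.502, 0.730 and 0.749, all above every Control mouse (exact two-sided permutation p = 0.00794, the smallest that 5 against 5 mice allow). Without a filter on low values the limma log2 fold change was 1.00 ± 0.36 (SE, adjusted p = 0.117). The mean of 1.48 ± 2.04 (SD, n = 5) rests on mouse 23. PZH + AOM/DSS mice 2, 13, 15, 35 and 36 gave 0.0276, 0.0245, 0.685, 0.317 and 0.360.

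The 4 ligands summed to a median of 1.88 FPKM in Control mice (1.03 to 1.93), 1.69 in PZH mice (1.2 to 3.14), 14.7 in AOM/DSS mice (7.90 to 25.4) and 4.48 in PZH + AOM/DSS mice (0.986 to 18.1). Their mix differed as well. Lif made up a median of 79.7% of the sum in Control mice and 26.1% in AOM/DSS mice, while Il11 made up 11.1% and 36.5% and Osm 8.02% and 30.6%. Il11 was the highest ligand in 3 mice of each group with AOM/DSS and Lif in the other 2. Il6 had a median share of 4.78% in AOM/DSS mice and 0% in Control and PZH mice, and was the highest ligand in 0 of 20 mice.

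**Figure D2:**
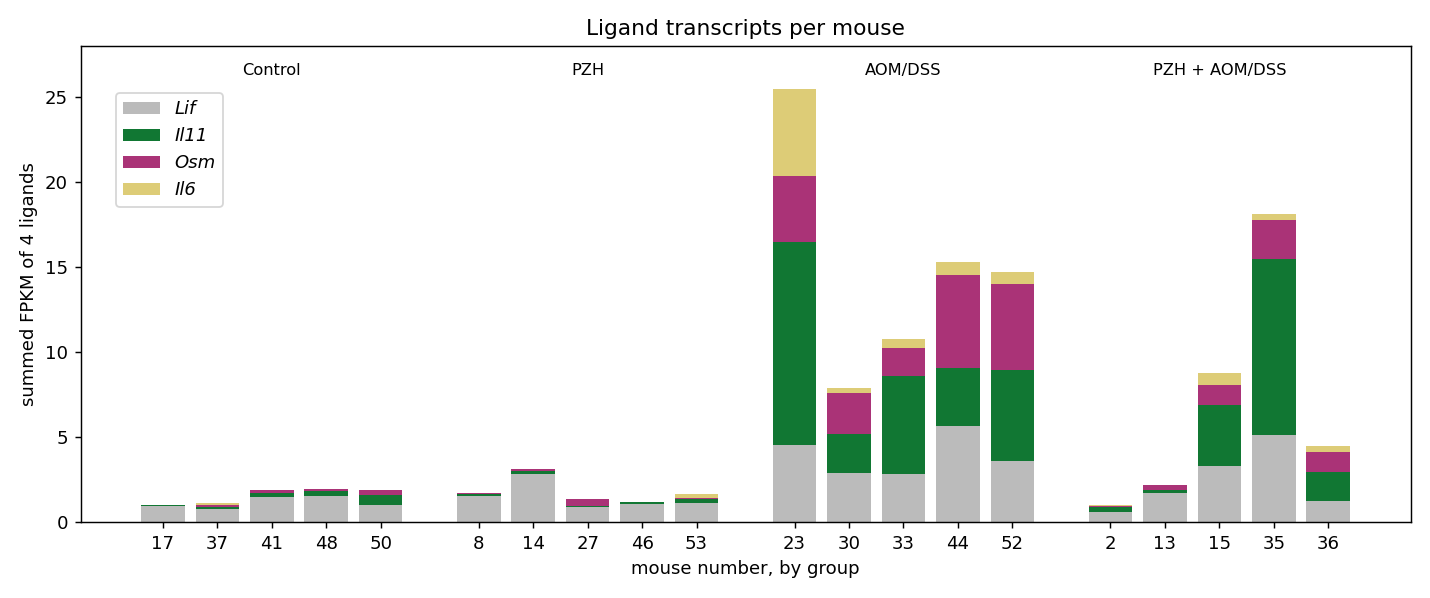
Stacked FPKM of Lif, Il11, Osm and Il6 (y axis, linear from 0) in each of the 20 mice (x axis, mouse number by group). The bars of all Control and PZH mice stay at or below 3.14 and consist mostly of Lif, AOM/DSS bars reach 7.90 to 25.4, and PZH + AOM/DSS bars range from 0.986 in mouse 2 to 18.1 in mouse 35.

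Osmr, which encodes the chain that pairs with gp130 for oncostatin M, had the smallest adjusted p of the 9 genes tested. Its FPKM was 3.38, 2.46, 2.64, 2.52 and 2.69 in Control mice 17, 37, 41, 48 and 50 and 8.57, 6.48, 9.33, 7.69 and 7.86 in AOM/DSS mice 23, 30, 33, 44 and 52. The log2 fold change was 1.26 ± 0.13 (SE, limma adjusted p = 7.6e-05). PZH mice gave 2.15 to 3.42, and PZH + AOM/DSS mice 2, 13, 15, 35 and 36 gave 4.21, 5.66, 8.38, 7.52 and 6.2, all above every mouse without AOM/DSS. Osmr FPKM divided by Il6st FPKM in the same mouse was 0.116 to 0.334 in Control mice and 0.336 to 0.421 in AOM/DSS mice. It was 0.141 to 0.374 in PZH mice, which reached into the AOM/DSS range, and 0.231 to 0.583 in PZH + AOM/DSS mice.

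The other receptors did not pass the test. Il6ra was 2.74 ± 0.617 FPKM in Control and 2.48 ± 0.329 in AOM/DSS mice (SD, n = 5), and with PZH it was 2.96 ± 0.620 without and 2.83 ± 0.486 with AOM/DSS. The 95% confidence interval of its log2 change in AOM/DSS against Control was -0.41 to 0.23. Il6st, the gp130 gene, was 15.7 ± 5.87 FPKM in Control and 20.6 ± 3.17 in AOM/DSS mice (log2 0.44 ± 0.25, SE, limma adjusted p = 0.237), with Control mouse 37 at 7.36 and mouse 50 at 23.2. The change of Il6st was 0.21 without Control mouse 37 and 0.70 without Control mice 17 and 50 (limma adjusted p = 0.418 and 0.0997). Il6ra exceeded Osmr in FPKM in 3 of 5 Control mice and in no AOM/DSS mouse, where the ratio of Il6ra to Osmr was 0.267 to 0.343.

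Il11ra1, the receptor for IL-11, fell into separate ranges, each with mice of every group: 1.86 to 3.66 FPKM in 8 mice and 10.2 to 24.1 in 12. Within the upper range, Control mice 17, 37, 41 and 50 stood at 17.2 to 24.1. These were above the highest PZH, AOM/DSS and PZH + AOM/DSS mouse, at 14.6, 13.9 and 14.7. The lower range held 1 Control mouse, 2 PZH, 2 AOM/DSS and 3 PZH + AOM/DSS mice. One assembled transcript without a gene name, picked after its values were seen as the one of 7057 with the most negative correlation, stood at 4.11 to 8.20 in the 8 mice and at 0.653 to 3.55 in the 12. Mouse Il11ra1 also has near-identical copies in the genome that can share its reads, so its level is uncertain. Its log2 change in AOM/DSS against Control was -0.97 ± 0.59 (SE, limma adjusted p = 0.272).

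Stat3 was the most abundant of the 10 genes in every mouse. Its FPKM was 55.7, 43.4, 48, 46.6 and 43.4 in Control mice 17, 37, 41, 48 and 50 and 67.5, 71.2, 60.4, 73.7 and 66.4 in AOM/DSS mice 23, 30, 33, 44 and 52. The difference was small in size and larger than the spread between mice (log2 0.51 ± 0.10, SE, limma adjusted p = 0.00358). With only its leading transcript Stat3-201, which gave 52.6% of its FPKM, the change was 0.41 and the adjusted p 0.0859. These are transcript levels and carry no information on the phosphorylation of STAT3.

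Socs3 showed the largest fold change of the 9 genes tested on the log2(FPKM + 1) scale, 2.45 ± 0.28 (SE, limma adjusted p = 0.000178). Its FPKM was 8.15, 8.39, 5.20, 3.43 and 2.73 in Control mice 17, 37, 41, 48 and 50 and 34.3, 24.8, 27.9, 32.7 and 47.3 in AOM/DSS mice 23, 30, 33, 44 and 52. PZH mice 8, 14, 27, 46 and 53 gave 8.53, 3.68, 6.22, 2.40 and 4.46. In PZH + AOM/DSS mice 2, 13, 15, 35 and 36 the values were 12.3, 9.63, 31.6, 33.4 and 9.42. Mice 2, 13 and 36 lay between the Control and the AOM/DSS range, and mice 15 and 35 within the latter.

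Without Control mice 17 and 50, the same 6 genes were called higher, beside 1881 of 15381 genes called higher in that fit. Without mouse 50, Il11 met the filter, as Osm did, through the 5 AOM/DSS mice alone, so neither of these calls adds support. The log2 fold changes were 1.99 for Osm, 2.33 for Il11, 1.09 for Lif, 1.34 for Osmr, 0.55 for Stat3 and 2.40 for Socs3. Of the genes not called, Il6ra was then at -0.19 and Il11ra1 at -0.59. Leaving out any 1 of the 5 AOM/DSS mice took Osm below the filter and left 5 calls.

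Markers of several cell types moved in the same comparison, in which 16.4% of all genes were called higher and 1143 of 15812 lower. Of the 7 neutrophil markers 6 were tested, 5 were higher and 0 lower in AOM/DSS mice, and the mean over the list was 0.945 to 2.53 in Control mice, 3.56 to 4.79 in AOM/DSS mice and 1.58 to 3.98 in PZH + AOM/DSS mice. Of 10 macrophage and monocyte markers 6 were higher, with means of 3.78 to 4.35 in Control and 4.61 to 4.81 in AOM/DSS mice. Fibroblast markers went both ways, 2 higher and 2 lower of 8, and all 6 smooth muscle markers were lower. Of 6 T cell markers 4, of 5 B and plasma cell markers 2 and of 5 endothelium markers 2 were higher, and 2 of 9 colon epithelium markers tested were lower. Of 4 squamous epithelium markers tested 0 were called. The mean over that list was 4.26 and 4.06 in Control mice 17 and 50 and 0.145 to 0.237 in the other Control mice. In AOM/DSS mice it was 0.932 to 1.52. All marker calls include Control mice 17 and 50. No defining marker of any list was at 0 in every mouse. The part of these cell types in the levels of the 10 genes was not tested.

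With PZH added to AOM/DSS, 9 of the 10 genes had lower mean levels than with AOM/DSS alone and Il6ra a higher one, but 0 passed the limma test, as did 1 of 15888 genes tested (0.00629%). At an unadjusted p under 0.05, 3 of the 10 were lower, Osm, Stat3 and Socs3, and 8.21% of all genes were lower by that rule. In 0 of the 10 genes did the groups separate, against 0.673% of genes tested that were lower without overlap. The median log2 change was -0.49 over the 10 genes and -0.04 over all genes. This comparison and that of AOM/DSS with Control share the 5 AOM/DSS mice, so a high value there enters both.

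Osm had the largest difference on the log2(FPKM + 1) scale with all mice included, 0.996 ± 0.890 against 3.69 ± 1.65 FPKM (SD, n = 5), a log2 change of -1.27 ± 0.34 (SE, limma adjusted p = 0.356) and an exact two-sided permutation p of 0.0159. Stat3 was 58.8 ± 4.93 against 67.9 ± 5.07 FPKM (log2 -0.20 ± 0.09, limma adjusted p = 0.422), with an exact two-sided permutation p of 0.0238. The log2 changes were -0.94 ± 0.37 for Socs3, -1.05 ± 0.61 for Il11, -0.70 ± 0.38 for Il6, -0.66 ± 0.34 for Lif, -0.30 ± 0.17 for Osmr and -0.28 ± 0.15 for Il6st, with limma adjusted p values of 0.382 to 0.524. Their 95% confidence intervals reached down to -1.75, -2.40, -1.53, -1.41, -0.68 and -0.61, so differences of that size are within what these mice allow.

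The 5 PZH + AOM/DSS mice differed among themselves. Mice 2 and 13 each had less than any AOM/DSS mouse in the same 7 genes, Il6, Il11, Osm, Lif, Osmr, Stat3 and Socs3. Mouse 36 did so in 6 genes, mouse 15 in 4 and mouse 35 in 1, Il6st. The share of all genes below every AOM/DSS mouse was not computed for any mouse, so these counts only describe the 10 genes. Even in mice 2 and 13, Osmr, Stat3 and Socs3 were above the range of all 10 mice without AOM/DSS. Marker list means differed among these mice as well, given here for mice 13, 2, 36, 15 and 35 in turn. The neutrophil list was at 1.58, 1.97, 3.42, 3.04 and 3.98, and the squamous epithelium list at 0.357, 0.448, 0.718, 0.778 and 2.17. Smooth muscle markers ran the other way, at 8.34, 7.84, 7.02, 6.96 and 6.96. The macrophage and monocyte list followed neither order, at 4.56, 4.38, 4.16, 4.50 and 4.91. The part of these lists in the gene levels was not tested.

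Whether Osm was called depended on 1 mouse and on how the variance was estimated. Without PZH + AOM/DSS mouse 35, Osm was lower by -1.48 ± 0.32 on the log2 scale (SE, limma adjusted p = 0.0318), as were 4.41% of genes lower in that fit, and the adjusted p was 0.0743 for Socs3, 0.0985 for Lif and 0.104 for Il11. With the variance estimated over all 20 mice and none left out, the adjusted p of Osm was 0.0431, the only one of the 10 called, with 0.535% of genes called lower. Mouse 35 carried no label that sets it apart, and the result with all 5 mice is the one given as the comparison. Its squamous epithelium markers did differ, with a sum of 60.0 FPKM. The other PZH + AOM/DSS mice had 2.52 to 9.22 FPKM and the AOM/DSS mice 11.7 to 35.4. The part of this difference in the Osm result was not tested.

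**Figure D3:**
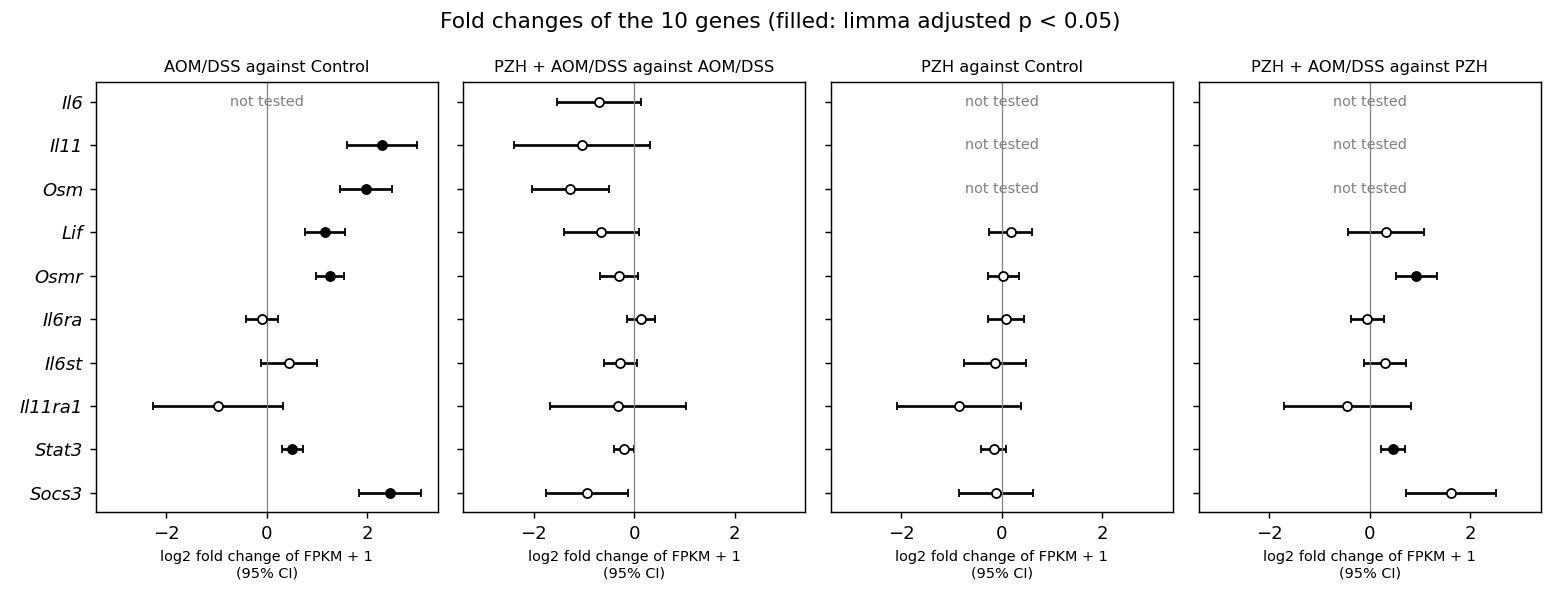
Log2 fold change of FPKM + 1 (x axis) with its 95% confidence interval for each of the 10 genes (y axis) in 4 comparisons, filled where the limma adjusted p was under 0.05. In AOM/DSS against Control 6 genes are filled, in PZH + AOM/DSS against AOM/DSS and PZH against Control 0, and in PZH + AOM/DSS against PZH only Osmr and Stat3.

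PZH alone left no call among the 10 genes. Of the 7 tested against Control, 0 were called by limma at an adjusted p under 0.05 and 0 at an unadjusted p under 0.05, against 0.00645% and 8.84% of all 15506 genes in either direction. The log2 changes were 0.18 for Lif, 0.03 for Osmr, 0.08 for Il6ra, -0.14 for Il6st, -0.85 for Il11ra1, -0.17 for Stat3 and -0.11 for Socs3, with limma adjusted p values of 0.669 to 0.960. The confidence interval was -0.27 to 0.33 for Osmr, -0.41 to 0.08 for Stat3 and -0.84 to 0.62 for Socs3. Il6, Il11 and Osm were below the filter, at 0.587 FPKM or less in all 10 mice. Without Control mice 17 and 50, the sign turned for Il6ra (-0.01) and Il6st (0.11), Osmr was at 0.10, Lif at 0.11, Il11ra1 at -0.47, Stat3 at -0.13 and Socs3 at -0.16, and 0 were called.

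Against PZH, PZH + AOM/DSS mice had higher Osmr (log2 0.93 ± 0.18, SE, limma adjusted p = 0.0349) and higher Stat3 (0.47 ± 0.11, limma adjusted p = 0.0485). These are 2 of 7 genes tested, against 1.74% of genes called higher. Socs3 was 19.3 ± 12.2 against 5.06 ± 2.39 FPKM (SD, n = 5; log2 1.62 ± 0.41, SE, limma adjusted p = 0.0643). All 3 were without overlap, as were 5.00% of genes tested that were higher. Il11, not tested by limma, was 3.23 ± 4.23 against 0.134 ± 0.0784 FPKM, with an exact two-sided permutation p of 0.0159, and Osm 0.996 ± 0.890 against 0.127 ± 0.163, with an exact two-sided permutation p of 0.0714. The calls of Osmr and Stat3 were close to the threshold and were lost without single mice: leaving out 1 mouse left 0 or 1 of the 2, and both were lost without a filter (adjusted p = 0.0726 and 0.0856). With all 20 mice in one model, Socs3 was called as well (adjusted p = 0.0145), with 4.41% of genes called higher in that fit.

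Whether the difference with PZH was larger in mice with AOM/DSS than in mice without was tested by the interaction over all 20 mice. Of the 10 genes 0 were called by limma, as were 2 of 16936 genes (0.0118%). Osm was the one gene with a negative term at an unadjusted p under 0.05, as had 6.92% of all genes, at -1.26 ± 0.37 on the log2 scale (SE, limma adjusted p = 0.35). In mice without AOM/DSS, Osm was at 0.406 FPKM or less, and its log2 change with PZH there was -0.01. The term thus nearly repeats the PZH + AOM/DSS against AOM/DSS difference of -1.27 and is no separate evidence. Without PZH + AOM/DSS mouse 35, the term for Osm was -1.47 and was called (adjusted p = 0.0211), with 2.49% of genes called in that direction. Without Control mice 17 and 50 it was -1.27 (limma adjusted p = 0.514), and 0 of the 10 genes were called.

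By mean FPKM, the order of the groups was AOM/DSS first, PZH + AOM/DSS second and the 2 groups without AOM/DSS last for 8 of the 10 genes, all but Il6ra and Il11ra1. Of 30 pairs of neighbours in these orders, 5 had an exact two-sided permutation p under 0.05 and 2 were without overlap, PZH + AOM/DSS over PZH in Osmr and PZH + AOM/DSS over Control in Socs3. The other 3 were Osm and Stat3 in AOM/DSS over PZH + AOM/DSS and Stat3 in PZH + AOM/DSS over Control (exact permutation p = 0.0159, 0.0238 and 0.0159). Control and PZH, neighbours at the low end for 8 genes, were not separated in any of them.

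The wider pathway held 68 genes with values, the 10 included, sorted by role in a list chosen from background knowledge. In AOM/DSS against Control 63 were tested, 27 were higher and 1 was lower, beside 16.4% of all genes called higher, and their median log2 fold change was 0.51 against 0.09 over all genes. Without the 10 genes, 21 of 54 were higher, with a median of 0.45. Osm among the 27, and the target Reg3g in both counts, passed the filter through the AOM/DSS mice alone. Reg3g was at 0.0319 ± 0.0221 FPKM in Control mice (SD, n = 5). Without Control mice 17 and 50, 23 pathway genes were called in place of 28, and Il11 then also passed the filter through the AOM/DSS mice alone. In that fit 1881 of all 15381 genes tested were called higher and 858 lower. Among the ligands, only the 3 already described were called, and Ebi3, the shared subunit of IL-27 and IL-35, was 1.42 ± 0.984 FPKM in Control and 1.62 ± 0.374 in AOM/DSS mice. Of the receptors, Il27ra, the receptor for IL-27, was higher beside Osmr (log2 0.74 ± 0.18, SE, limma adjusted p = 0.0149), and Cntfr, the receptor for ciliary neurotrophic factor, was at -0.27 ± 0.14 (limma adjusted p = 0.178).

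Of the 8 kinases and STATs 3 were higher and 0 lower, Stat3 and Jak2 among them, beside 16.4% of all genes called higher. Jak2, a kinase bound to gp130, rose from 7.10 ± 0.790 to 10.7 ± 1.53 FPKM (SD, n = 5; limma adjusted p = 0.0117). Tyk2, another JAK kinase, was at 0.09 ± 0.17 in AOM/DSS against Control.

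Of the 10 inhibitors 4 were higher and 0 lower, beside the same 16.4% of all genes called higher. Ptpn1, a phosphatase that acts on JAK kinases, rose from 12.1 ± 1.28 to 19.4 ± 2.46 FPKM (limma adjusted p = 0.00306). Socs1, an inhibitor of JAK kinases that interferon induces, rose from 1.19 ± 0.71 to 2.99 ± 0.708 FPKM (limma adjusted p = 0.0129) and stood at 5.61 ± 2.74 in PZH + AOM/DSS mice (log2 0.65 ± 0.27 against AOM/DSS, limma adjusted p = 0.398), with a sign opposite to that of Socs3. Pias3, named as an inhibitor of STAT3, was at -0.04 ± 0.26.

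Of the 30 targets tested 15 were higher and 1 lower, with a median log2 change of 0.68, beside 16.4% of all genes called higher. Il4ra, a receptor chain for IL-4 and IL-13, rose from 8.30 ± 1.03 to 29.6 ± 4.15 FPKM (limma adjusted p = 7.3e-06). Lcn2, an antimicrobial protein that binds bacterial iron carriers, rose from 2.01 ± 1.06 to 112 ± 53.3 FPKM (limma adjusted p = 7.4e-06). Lrg1, a secreted glycoprotein of the acute phase, rose from 3.93 ± 2.92 to 87.5 ± 45.5 FPKM (limma adjusted p = 7.68e-05). Vegfa, which drives vessel growth, was at 0.01 ± 0.37, and the one target that fell was Mcl1, a survival gene named after its value was seen, from 155 ± 20.2 to 104 ± 9.23 FPKM.

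Between the groups with and without PZH under AOM/DSS, 0 of 65 pathway genes tested were called by limma, and at an unadjusted p under 0.05 10 were lower and 3 higher, beside 8.21% and 3.51% of all genes. Without PZH + AOM/DSS mouse 35, 7 pathway genes were called, beside 5.17% of all genes in that fit. Lcn2 was 35.2 ± 45.1 FPKM in the PZH + AOM/DSS mice (log2 -2.36 ± 0.77 against AOM/DSS, limma adjusted p = 0.356), and Lrg1 45.2 ± 38.2. Against PZH mice, 9 of 60 pathway genes tested were higher and 0 lower, among them Socs1 (log2 1.32 ± 0.27) and Il4ra (1.02 ± 0.20), with limma adjusted p values of 0.0381 and 0.0349, beside 1.74% of all genes called higher. These calls were fragile, with 0 left without PZH mouse 27 and 1 without a filter on low values. Of the 60 tested in PZH against Control 0 were called, with 2 higher and 1 lower at an unadjusted p under 0.05.

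**Figure D4:**
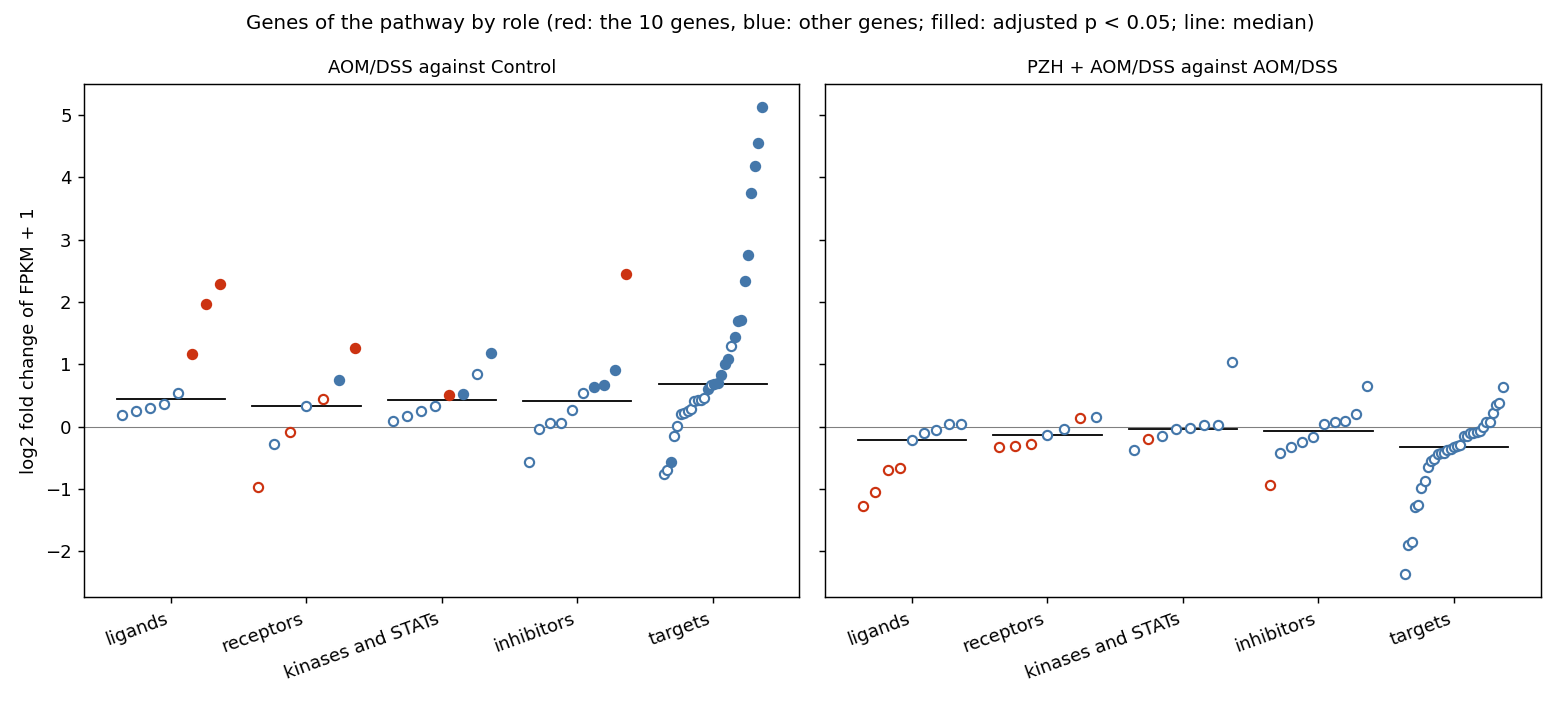
Log2 fold change of FPKM + 1 (y axis) of each tested pathway gene by role (x axis) in AOM/DSS against Control (left) and PZH + AOM/DSS against AOM/DSS (right), with the 10 genes in red, the others in blue, filled points at an adjusted p under 0.05 and a line at each median. On the left 28 points are filled, 27 of them above 0, and on the right 0 are filled, with medians from -0.33 for the targets to -0.03 for the kinases and STATs.

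The genes whose levels ran most like those of 5 members were found as the highest Pearson r of log2(FPKM + 1) with group means subtracted, over 20 mice and 16936 genes. They are descriptions, and the mice share their groups and libraries. For Osm they were Dnah17 (r = 0.911), Myrf (0.900) and Adam28 (0.899), and r stayed at 0.851 or more without the 2 mice farthest out, 2 and 35. For Il11 they were Mmp10, a stromelysin (0.933), Scgb1b29 (0.892) and Cemip, which takes part in hyaluronan breakdown (0.888). Mmp10 averaged 0.353 FPKM in Control and 62.3 in AOM/DSS mice, and with PZH 0.430 and 23.4, and its r without mice 13 and 35 was 0.856.

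For Il6 they were Chil3, a chitinase-like protein of myeloid cells (0.858), Nmd3 (0.855) and Mmp8, the neutrophil collagenase (0.840). The likeness of Chil3 rests on AOM/DSS mice 23 and 30, since r was 0.344 without them. For Osmr they were Alox5ap, needed for leukotriene synthesis (0.799), Car8 (0.784) and Pola1 (0.763), the last at 0.516 without mice 2 and 15. For Socs3 they were St3gal1 (0.844), Egr2, an immediate early transcription factor (0.842), and Pla2g2d (0.835), with r of 0.770 or more without mice 15 and 35.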

How the data were processed

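The deposited values are FPKM per transcript and mouse, which the authors made by filtering reads, aligning them to mm10 with HISAT2 and quantifying transcripts with StringTie. No counts were used. The submitters' processing notes name limma. FPKM were summed per gene over Ensembl transcripts in GENCODE M21, where 50 of 57 transcripts of the 10 genes had values. Assembled transcripts, 12.1 to 14.9% of FPKM, have no gene name and were left out, so a gene can lose fragments to them.

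Log2(FPKM + 1) values were compared with limma 3.58.1 (R 4.3.3, trend, no covariates) over the 10 mice of a comparison. The fit was tested on simulated data. Single genes were also compared with exact two-sided permutation tests on the same scale (5 against 5 mice). Estimated fragments derive from the step of FPKM times length and are uncertain in absolute size. Intervals and tests cover the spread between mice. The genes and lists were chosen with earlier results of these data known. Named pathway genes were, per role, the 3 with the smallest and the 1 with the largest adjusted p in AOM/DSS against Control. One gene this rule names is not reported here. Alternatives were median-of-ratios scaling, a pseudocount of 0.1, no filter or 1 FPKM, all 20 mice in one model, leading transcripts, and leaving out each mouse. Leaving out Control mice 17 and 50 together was added after seeing the data.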

Additional observations from a re-analysis of the deposited data

Results flagged for a closer look

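In each of the 40 sets of 5 mice (10 genes, 4 groups), the highest and lowest mouse were compared with their nearest neighbour, and 5 stood apart by Dixon's criterion, which chance meets in about 1 of 20 groups. Il6 stood out in 3 groups, with 0.117 FPKM in Control mouse 37 (next mouse 0.022), 0.271 in PZH mouse 53 (next 0.0263) and 5.11 in AOM/DSS mouse 23 (next 0.749). Osmr was 3.38 in Control mouse 17 (next 2.69), one of the 2 Control mice with squamous epithelium markers. Stat3 was 67.3 in PZH + AOM/DSS mouse 35 (next 57.5). The reasons were not tested.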

How the results depend on the processing

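In AOM/DSS against Control the count of called genes among the 10 was 5 to 6 under every alternative run. With PZH + AOM/DSS against AOM/DSS it was 0, but 1 (Osm) with all 20 mice in one model and 0 to 1 when single mice were left out. For the 68 pathway genes it was 0, 1 in the model of all 20 mice and 0 to 7 when single mice were left out. The highest values came without PZH + AOM/DSS mouse 35, where 5.17% of all genes were called. Against PZH the count was 2 of the 10, with 0 without a filter, 1 with leading transcripts and 0 to 1 without single mice. For the pathway genes it was 9, with 1 without a filter, 16 with all 20 mice and 3 with leading transcripts. Without single mice it was 0 to 9, with 0 without PZH mouse 27. For the interaction, single mice gave 0 to 1 of the 10 and 0 to 5 of the pathway genes. The highest came again without mouse 35, where 2.83% of all genes were called. The causes were not tested.

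Signs turned only for uncalled changes near 0. In PZH against Control these were Lif with its leading transcript (-0.0673), Il6ra (-0.0136) and Il6st (0.11) without Control mice 17 and 50, a choice made after seeing the data, and, over single mice left out, Osmr (-0.0239 to 0.0987), Il6ra (-0.0111 to 0.163), Il6st (-0.373 to 0.0095) and Socs3 (-0.297 to 0.0744). In PZH + AOM/DSS against PZH it was Il6ra, at 0.0631 with its leading transcript and -0.122 to 0.0217 without single mice. In the interaction these were Stat3 with median-of-ratios scaling (0.0102) and its leading transcript (0.0963), and, without single mice, Il6ra (-0.0289 to 0.145), Il6st (-0.289 to 0.0937) and Stat3 (-0.0993 to 0.0139). No paired analysis was possible because no label links mice across groups. Depth limits Il6, Il11 and Osm in mice without AOM/DSS, where few fragments carry each value.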
